A study of Drosophila melanogaster with 36 samples.

Results

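Egg-KD and Control-KD ovarian somatic cells (OSCs) of Drosophila melanogaster were compared by Hi-C, which ligates restriction fragments that were crosslinked together and so counts how often 2 pieces of the genome lay next to each other. The comparison covers 4 of the 36 samples of the series, chosen by their labels: 2 replicates in which OSCs received siRNA against Egg, and 2 replicates of the H1 and Egg series in which they received siRNA against EGFP, a jellyfish protein with no gene in the fly. OSCs are a cultured line derived from the somatic cells of the ovary, and they silence transposons with Piwi and its piRNAs. All groups share this line and its medium, and the length of the Egg knockdown is not given in the labels. The authors merged the replicates of each group and deposited 1 matrix of 40-kb bins per group on dm3, covering arms X, 2L, 2R, 3L and 3R. A merged matrix has no replicate spread, so no SD, n or p-value can be given for any difference below. Control-KD matrices of the Piwi, the Nxf2 and the HP1a series, 6 samples in all, served only as a yardstick, and the labels of the HP1a series give a knockdown of 2 days. H1-KD (linker histone H1), HP1a-KD, Piwi-KD and Nxf2-KD (a partner of Piwi in silencing) are set beside Egg-KD in places, each with its own Control-KD over the bins kept in both matrices. The 4 Control-KD matrices form 6 pairs. The root mean square of their 6 log2 ratios is called the typical control pair, and the sign of a single pair is arbitrary. Hi-C holds no expression values, so neither the depletion of Egg nor the identity of the cells could be checked in these files.

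Egg (Eggless) is the fly SETDB1, a methyltransferase that places H3K9me3. This mark is bound by HP1a and is the hallmark of heterochromatin. In OSCs, Egg acts with Piwi in the silencing of transposons, and in flies it is known for methylation of chromosome 4 and for its role in the germline. Most heterochromatin of a fly chromosome surrounds the centromere, where repeats of different chromosomes gather into a chromocentre, whereas telomeres of different arms gather with each other at other places of the nucleus. The left and right arms of chromosomes 2 and 3 are joined at their centromeric ends. The arms used here hold the unique sequence up to the edge of the centromeric repeats, not the repeats themselves.

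The deposited values are signals corrected by iterative correction (ICE), which gives every bin of a matrix the same total. As a share of this total, which includes the contacts of a bin with itself, a gain at one class of contacts is therefore balanced by a loss at another. The ratios below are of scaled values, for which gains and losses need not balance. The total per bin was 17788 in Egg-KD and 15579 in Control-KD, and both matrices were scaled to equal totals within arms, without the contacts of a bin with itself. Behind the values lie 29400485 contacts in Egg-KD and 31120409 in Control-KD, recovered from the whole multiples in the files, and the other Control-KD matrices hold between 31691817 and 72450303. Of 2977 bins, 2956 were kept in both matrices. Counting errors given below come from the recovered contacts and cover counting error only. Contacts within arms made up 82.3% of the scaled signal between different bins in Egg-KD and 82.1% in Control-KD (log2 ratio 0.0023, with 0.039 for the typical control pair).

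Contacts by distance differed between Egg-KD and Control-KD in the same direction on all 5 arms at 40 kb, 400 kb, 1 Mb and 10 Mb. The mean value of neighbouring bins, 40 kb apart, was 1331 in Egg-KD and 1227 in Control-KD (log2 ratio 0.12.) At 400 kb it was 65.6 in Egg-KD and 74.6 in Control-KD (log2 ratio -0.19), and at 10 Mb it was 4.87 in Egg-KD and 4.35 in Control-KD (log2 ratio 0.16.) Contacts of intermediate range were thus lower, and those of the shortest and the longest range higher. The ratio at 40 kb lay within the differences of Control-KD matrices, where the typical pair was 0.11 and the largest 0.19. The ratio at 400 kb exceeded every control pair, of which the largest was 0.15, and so did the ratio of -0.095 at 1 Mb, where the largest was 0.066. At 10 Mb the largest pair was 0.156 and the Egg-KD ratio 0.162, with a counting error of 0.021.

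The deepest point of the curve lay at 240 kb over all arms, with a log2 ratio of -0.20 after a running median over 5 distances, and the ratio returned to 0 at 2.28 Mb. Close to this point, at 200 kb, the mean value in Egg-KD was 166, inside the 162 to 187 of the 4 Control-KD matrices. At that distance 0 of the 5 arms exceeded every control pair. Per arm the deepest point lay between 240 kb on X, 3L and 3R and 360 kb on 2R, with 2L at 320 kb. The loss at 400 kb ran from -0.15 on 2R to -0.22 on 2L, and each of the 5 arms exceeded its own largest control pair. At 1 Mb, 4 of the 5 arms did so, from -0.13 on 2R to -0.076 on X. The exception was 3L, with -0.077 against a largest pair of 0.079. At 10 Mb all 5 arms were higher in Egg-KD, from 0.080 on X to 0.26 on 3L, and 2R and 3L exceeded their largest pairs. Single distances scattered, with ratios over all arms of 0.094 at 9920 kb and 0.10 at 10240 kb, both smaller than the largest control pairs there of 0.18 and 0.17. Farther out the ratio was larger, with 0.22 at 12160 kb and 0.32 at 14080 kb, against largest pairs of 0.17 and 0.19. On X it was -0.069 at 9920 kb and 0.21 at 14080 kb. On 2R, the mean value at 10 Mb was 5.45 in Egg-KD and 4.76 in Control-KD. The arms differed from each other at 4 Mb, where 2L, 2R and 3L were higher, by 0.10, 0.076 and 0.099, and X and 3R lower, by -0.017 and -0.045. Of these values at 4 Mb, all were smaller in size than the largest control pair of the arm.

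As shares of the within-arm signal between different bins, contacts at 440 kb to 1 Mb took 9.42% in Egg-KD and 10.3% in Control-KD, and the other Control-KD matrices held 10.0% to 10.7%. Contacts over 5 Mb took 15.4% in Egg-KD and 14.1% in Control-KD, beside 13.7% to 15.1% in the other Control-KD matrices. The share at 40 to 400 kb hardly moved, with 52.7% in Egg-KD and 53.1% in Control-KD. Contacts of a bin with itself took 20.1% of all within-arm signal in Egg-KD and 17.9% in Control-KD. The Egg-KD value lay above the highest of the other Control-KD matrices, 19.9% in the Nxf2 series. That same matrix lay nearest to Egg-KD at 40, 200 and 400 kb and at 1 and 10 Mb, with 69.1 at 400 kb and 4.68 at 10 Mb. With it as the control, the log2 ratio was -0.075 at 400 kb and 0.056 at 10 Mb, both smaller than the typical control pair, so the curve exceeds the differences between Control-KD matrices only in part. The part of library quality in the curve was not tested.

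**Figure D1:**
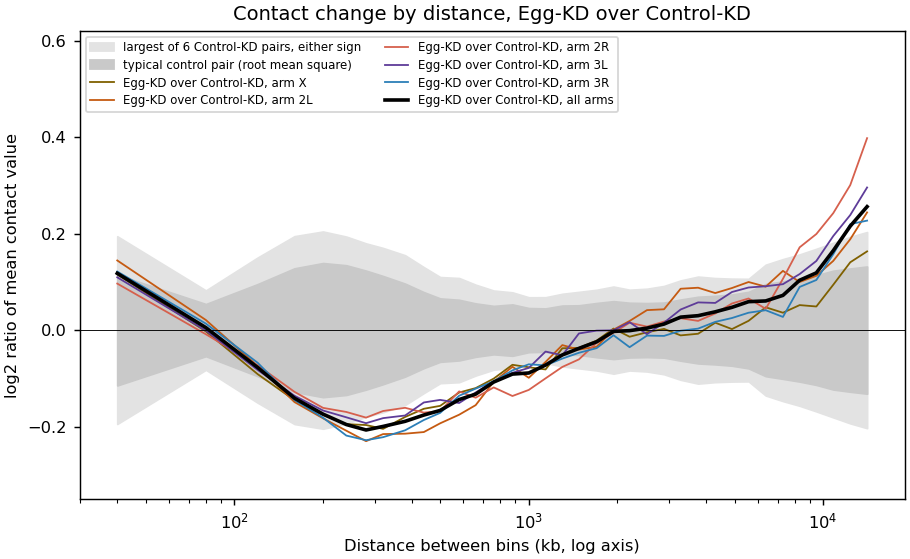
Log2 ratio of the mean contact value, Egg-KD over Control-KD, against the distance between bins (kb, log axis), for each arm (coloured lines) and all arms (black line), averaged over neighbouring distances. Grey bands give the typical and the largest of the 6 Control-KD pairs at that distance. The black line leaves the outer band around 400 kb and 1 Mb, where the single distances have -0.19 and -0.095, and again beyond 10 Mb, where that at 12160 kb has 0.22.

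Contacts between the centromere-proximal zones of the left and right arm of the same chromosome were lower upon Egg-KD by more than every control pair. Zones were set as the 2 Mb of each arm nearest to the centromere (244 bins), the 1 Mb nearest to the telomere (124 bins) and the interior over 4 Mb from both ends (1961 bins). The mean value between centromere-proximal zones of the same chromosome was 5.25 in Egg-KD and 7.57 in Control-KD (log2 ratio -0.53) with a counting error of 0.012. The other Control-KD matrices held 7.91, 8.25 and 8.18 in the Piwi, the Nxf2 and the HP1a series, so Egg-KD lay below all 4. The typical control pair was 0.078 and the largest 0.12. On recovered contacts before ICE the ratio was -0.465. Over the average of all contacts between arms, the log2 ratio of this class was -0.52, against a largest control pair of 0.23.

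The loss was found on both chromosomes. Between the centromere-proximal zones of 2L and 2R the value was 7.24 in Egg-KD and 10.8 in Control-KD, and 11.4 to 11.5 in the other Control-KD matrices. The log2 ratio was -0.57, against a largest control pair of 0.099. For 3L with 3R it was 3.35 in Egg-KD and 4.50 in Control-KD, with 4.64 to 5.22 in the others, a log2 ratio of -0.43 against a largest pair of 0.21. The interiors of the same chromosome had a ratio of -0.16, near the typical control pair of 0.163, and the whole arms had -0.095 for 2L with 2R and -0.11 for 3L with 3R, both smaller than the typical pair. A pair of windows at the same distance from the centromere on both arms was then followed outwards.

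For 2L with 2R the loss was spread over the first 4 Mb. The value was 16.7 in Egg-KD and 24.3 in Control-KD within 0.4 Mb of the centromeric ends, 9.37 in Egg-KD and 14.6 in Control-KD at 0.4 to 1 Mb, 4.65 in Egg-KD and 7.11 in Control-KD at 1 to 2 Mb, and 3.10 in Egg-KD and 4.05 in Control-KD at 2 to 4 Mb. The log2 ratios were -0.54, -0.64, -0.61 and -0.38, and each exceeded the largest control pair there. From 4 to 8 Mb it was -0.19 and from 8 to 12 Mb -0.16, within the control-pair differences. For 3L with 3R the loss was steepest at the very end. Within 0.4 Mb the value was 4.49 in Egg-KD and 8.81 in Control-KD (log2 ratio -0.97), with 8.71 to 9.57 in the other Control-KD matrices and a largest control pair of 0.14. This window rests on 273 contacts in Egg-KD and 476 in Control-KD, a counting error of 0.11. From 0.4 to 12 Mb the ratios of 3L with 3R ran from -0.20 to -0.34, and that at 1 to 2 Mb did not exceed the largest pair of 0.32. Egg-KD was the lowest of the 5 matrices in all 12 windows, and its ratio to Control-KD exceeded every control pair in 9.

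**Figure D2:**
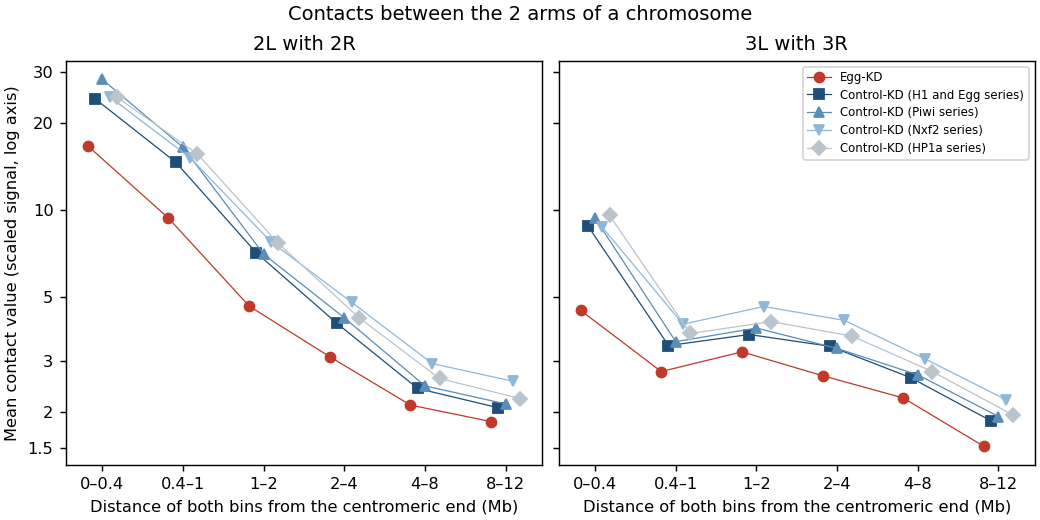
Mean contact value (scaled signal, log axis) between windows at the same distance from the centromeric end on the left and the right arm, for Egg-KD and the 4 Control-KD matrices. Egg-KD lies below all Control-KD matrices in each window, with 16.7 against 24.3 for 2L with 2R and 4.49 against 8.81 for 3L with 3R in the window nearest to the centromere.

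Between different chromosomes the ratio of centromere-proximal zones to the own Control-KD differed in sign by chromosome. Over all pairs of different chromosomes the value was 2.18 in Egg-KD and 2.28 in Control-KD (log2 ratio -0.061), and the typical control pair was 0.17. This mean holds ratios of both signs. The 4 pairs between chromosomes 2 and 3 were lower in Egg-KD, with log2 ratios of -0.40 for 2L with 3L, -0.27 for 2R with 3L, -0.26 for 2L with 3R and -0.15 for 2R with 3R, and in each of them Egg-KD was the lowest of the 5 matrices. The first and second exceeded every control pair. All 4 pairs with X were higher, with 0.33 for 2L, 0.15 for 2R, 0.33 for 3L and 0.20 for 3R. Of these, only X with 2L exceeded its largest control pair, at 0.26, with 2.41 in Egg-KD, 1.92 in Control-KD and 2.05 to 2.30 in the other Control-KD matrices. In all 4 pairs with X, the own Control-KD was the lowest of the Control-KD matrices. Egg-KD lay inside their range for X with 2R, at 2.29 between 2.06 and 2.42. The same held for X with 3L, at 2.37 between 1.88 and 2.38, and for X with 3R, at 1.44 between 1.25 and 1.64. Without X, the ratio between centromere-proximal zones of different chromosomes was -0.297.

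Centromere-proximal zones met the telomere-proximal zones of other arms more often in Egg-KD than in its Control-KD. The mean value was 0.698 in Egg-KD and 0.488 in Control-KD (log2 ratio 0.52) with a counting error of 0.016. The ratio was positive in 19 of the 20 combinations of a centromeric zone with the telomeric zone of another arm and exceeded every control pair in 10 of them. It was 0.86 for centromeric 2L with telomeric 3L, the highest, and -0.021 for centromeric X with telomeric 3R, the exception. By centromeric zone the ratios were 0.69 for 2L, 0.62 for 2R, 0.58 for 3R, 0.47 for 3L and 0.19 for X, and those of 2L, 2R and 3R exceeded their control pairs. The size of this gain depends on which control is used. The Control-KD matrix of Egg-KD was the lowest of the 4 in this class, and those of the Piwi, the Nxf2 and the HP1a series held 0.651, 0.642 and 0.503. With the first and second of these as the control, the Egg-KD ratio was 0.095 and 0.121, smaller than the typical control pair of 0.32. Over the average of all contacts between arms, the class was at 0.652 in Egg-KD and 0.451 in Control-KD, with 0.544, 0.474 and 0.439 in the Piwi, the Nxf2 and the HP1a series, and the log2 ratio of 0.53 exceeded the largest control pair of 0.31. Between the arms of the same chromosome the value was 0.810 in Egg-KD and 0.551 in Control-KD, with 0.576 to 0.670 in the others, a ratio of 0.56 against a largest pair of 0.28.

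Telomere-proximal zones met each other less often in Egg-KD, within the range of control pairs for the mean. This mean over all pairs of arms was 4.37 in Egg-KD and 4.97 in Control-KD, with 5.11, 5.83 and 5.26 in the Piwi, the Nxf2 and the HP1a series, and the log2 ratio was -0.18. This is above the typical control pair of 0.14 and below the largest pair of 0.23. All 10 pairs of arms were lower in Egg-KD, from -0.0090 for X with 2R to -0.38 for X with 3R, and 4 of them exceeded every control pair: X with 3R, X with 2L, 2R with 3L and 3L with 3R. For X with 3R the value was 3.22 in Egg-KD and 4.20 in Control-KD, with up to 5.01 in the others, and Egg-KD was the lowest of the 5 matrices. Over the average of all contacts between arms, the ratio of telomere-proximal zones was -0.17, against a largest pair of 0.10.

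Between interiors of different chromosomes the value was 0.870 in Egg-KD and 0.874 in Control-KD (log2 ratio -0.0066), and over the 10 pairs of arms interior contacts ran from -0.18 to 0.022, none past every control pair. Over the average of all contacts between arms, interiors of the same chromosome had -0.15 against a largest pair of 0.098. Centromere-proximal zones with interiors of other arms had a ratio of 0.21, smaller than the typical control pair of 0.27, with 0.815 in Egg-KD and 0.702 in Control-KD, and over that average 0.23 against a largest pair of 0.13. The level between arms overall was 1.07 in Egg-KD and 1.08 in Control-KD (log2 ratio -0.013, with 0.20 for the typical control pair). Arms 2L and 3R had the highest level among arms of different chromosomes, 1.43 in Egg-KD and 1.39 in Control-KD, a ratio of 0.034. Coverage by zone was also compared. The centromere-proximal zones took 6.73% of the recovered contacts in Egg-KD and 6.49% in Control-KD (log2 ratio 0.053), where the other Control-KD matrices differed from it by up to 0.032. Its part in the changes of these zones was not tested.

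**Figure D3:**
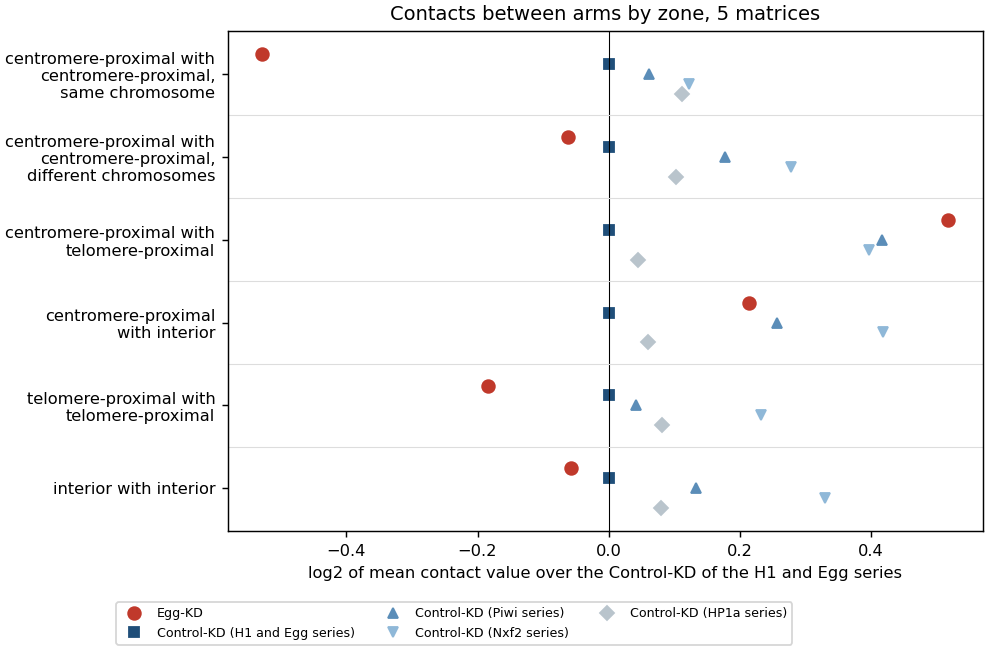
Mean contact value between zones of different arms, as log2 over the Control-KD matrix of Egg-KD, for Egg-KD (red circles) and the 4 Control-KD matrices (blue and grey). For centromere-proximal zones of the same chromosome Egg-KD lies at -0.53 and all Control-KD matrices at 0 or above, while for centromere- with telomere-proximal zones Egg-KD lies at 0.52 and the Piwi series at 0.42.

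**Figure D4:**
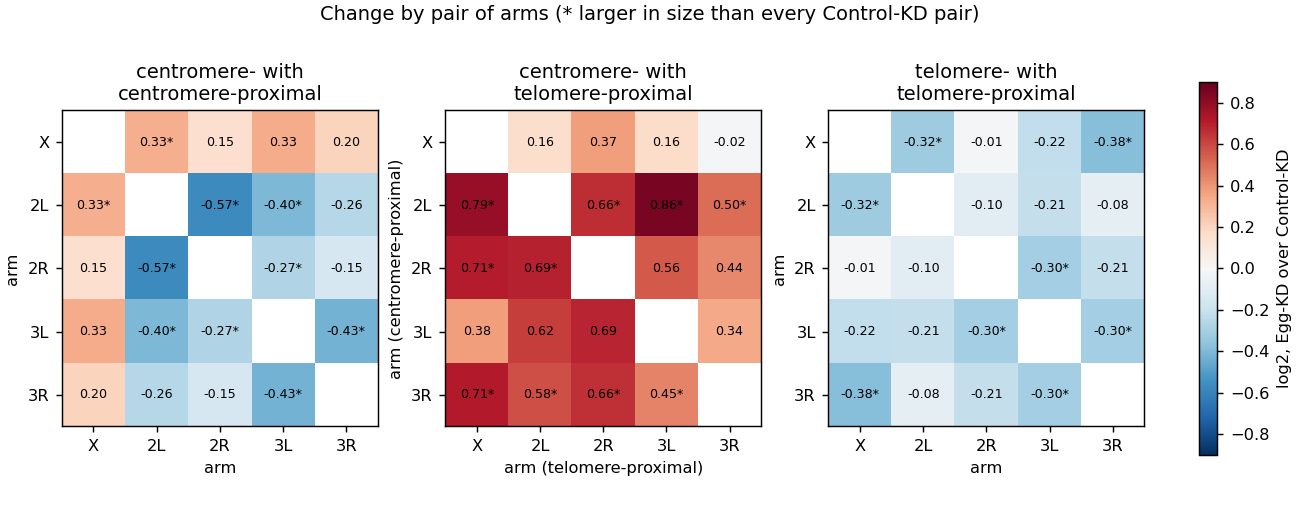
Log2 ratio of Egg-KD over Control-KD for each pair of arms, between centromere-proximal zones (left), a centromere- and a telomere-proximal zone (middle) and telomere-proximal zones (right), where a star marks ratios larger in size than every control pair. Pairs of autosomal centromere-proximal zones are blue, from -0.15 to -0.57, and those with X red, from 0.15 to 0.33.

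Within arms, bins of the centromere-proximal zone also met each other less often on 2L and 2R, by more than every control pair. Contacts over 400 kb apart were divided by the mean of the arm at the same distance, so that 1 stands for an average pair. Over the 5 arms the centromere-proximal pairs had 1.60 in Egg-KD and 1.74 in Control-KD (log2 ratio -0.12) against a largest control pair of 0.066. The arms did not move together. Arm 2R had 1.98 in Egg-KD and 2.32 in Control-KD, with 2.21 to 2.28 in the other Control-KD matrices, and its ratio of -0.23 exceeded the largest pair of 0.072. Arm 2L had 1.33 in Egg-KD and 1.49 in Control-KD, with 1.44 to 1.49 in the others, a ratio of -0.16 against 0.051. Arm 3L had 1.99 in Egg-KD and 2.26 in Control-KD, a ratio of -0.18, but the Nxf2 series Control-KD held 2.00 there and the largest pair was 0.20. Arm 3R went the other way, with 1.25 in Egg-KD, 1.16 in Control-KD and 1.17 to 1.22 in the others, a ratio of 0.12 against 0.079. Arm X had 1.36 in Egg-KD and 1.31 in Control-KD, a ratio of 0.060, within its largest pair of 0.090.

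The ratio over all arms was -0.036 on recovered contacts before ICE and -0.050 with the Nxf2 series Control-KD. On recovered contacts it was -0.087 for 2L, -0.137 for 2R and -0.092 for 3L, and 0.138 for 3R and 0.196 for X. With the Nxf2 series Control-KD it was -0.170 for 2L, -0.158 for 2R, 0.036 for 3R and 0.137 for X. With that control 3R no longer exceeded its largest control pair and X did. On 3L the loss was then nearly absent, with 1.99 in Egg-KD and 2.00 in the Nxf2 series Control-KD. Without 2R, the ratio over the remaining arms to the own Control-KD was -0.071. Pairs of a centromere-proximal and an interior bin of the same arm were higher on 2L, with 1.03 in Egg-KD and 0.933 in Control-KD, a ratio of 0.14 against a largest pair of 0.051. On 3R they were lower, with 1.15 in Egg-KD and 1.21 in Control-KD, a ratio of -0.070 against 0.039. Pairs of interior bins, at 0.960 in Egg-KD and 0.958 in Control-KD, moved by 0.0031, where the largest control pair was 0.0030. In the same arms the share of recovered contacts in the centromere-proximal zone was higher in Egg-KD by log2 ratios of 0.076 on 2R and X, 0.063 on 3L, 0.056 on 2L and 0.010 on 3R, and the part of coverage in these differences was not tested.

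On 2L these differences were not limited to Egg-KD. With each knockdown set against its own Control-KD, centromere-proximal pairs of 2L had -0.16 upon Egg-KD, -0.20 upon HP1a-KD, -0.11 upon Piwi-KD, -0.099 upon Nxf2-KD and -0.098 upon H1-KD. On 2R they had -0.23 upon Egg-KD, -0.33 upon HP1a-KD, -0.15 upon H1-KD, 0.021 upon Piwi-KD and 0.0075 upon Nxf2-KD.

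Short-range contacts of centromere-proximal bins were not shifted beyond the control pairs. The contacts of each bin at 40 to 400 kb were summed, and the log2 ratio was taken after removal of the median of the arm. The median of this change was 0.0038 in centromere-proximal bins and 0.0023 in interior bins, a difference of 0.0015, where the typical control pair was 0.040 and the largest 0.065. By arm, the centromere-proximal median ran from -0.026 on 3R to 0.054 on 2R. Telomere-proximal bins had a median of -0.016, and that of telomeric X was the lowest of the arms at -0.069, past its largest control pair of 0.046. Telomeric 3R had the highest, 0.023 against 0.012. Over all bins the change had an SD of 0.067, against 0.052 in the typical control pair and 0.075 in the pair that differed most.

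Bins were called past 3 times the typical control pair, a change of 0.15. A decrease past it was found in 94 of 2956 bins, or 3.18%, and an increase in 9, or 0.304%. On recovered contacts before ICE the balance was the other way round, with 46 bins past the same limit as decreased and 90 as increased. The decreased bins formed 59 separate runs, the longest of 200 kb, and the increased bins 7. Pairs of Control-KD matrices had up to 77 bins past the limit on one side. In the centromere-proximal zone 10 of 244 bins were decreased, 4.10%, and in the interior 55 of 1961, 2.80%, both near the share of all bins. In the telomere-proximal zone it was 12 of 124, 9.68%, and on arm X 30 of 555, 5.41%. Most of the telomere-proximal ones lay in 2 runs of neighbouring bins, which share contacts. These were the 3 bins from 160001 to 280000 on X and the bins from 440001 to 640000 on 2L, beside the gypsy insertion described below. Increased bins fell in the centromere-proximal zone in 5 of 9 cases, which is 2.05% of its 244 bins beside 0.304% of all bins. Of these, 4 lay among the 50 centromere-proximal bins of 3L. Of the 94 decreased bins, 81 had a higher share of recovered contacts in Egg-KD than in Control-KD, 86.2%, compared with 47.7% of all bins. On recovered contacts 83 of the 94 were still lower in Egg-KD, with a median change of -0.12, and 30 passed the limit. With each of the other 3 Control-KD matrices in place of the own one, 38 of the 94 stayed past the limit, and 0 of the 9 increased bins did. The part of coverage in these calls was not tested.

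The 5 regions with the largest decrease held bins on X and 2R. The first ran from 21760001 to 21840000 on X, 0.64 Mb from the centromeric end. Its bin at 21760001 had a summed short-range value of 2411 in Egg-KD and 3450 in Control-KD, with 2856, 3161 and 3398 in the Piwi, the Nxf2 and the HP1a series. Egg-KD was the lowest of the 5 matrices, the change was -0.51, and the largest control pair there was 0.22. Its share of recovered contacts was higher in Egg-KD by a log2 ratio of 0.28, and on recovered contacts the change was -0.24. The change in the same bin was -0.65 upon H1-KD, which has the same Control-KD, -0.51 upon HP1a-KD, -0.14 upon Nxf2-KD and 0.00091 upon Piwi-KD.

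The second region ran from 160001 to 280000 on X, near the telomeric end. Its bin at 200001 had 5471 in Egg-KD and 7180 in Control-KD, with 6521 to 6692 in the other Control-KD matrices, a change of -0.39 against a largest pair of 0.073. Its insulation score, explained below, was 0.032 in Egg-KD and 0.65 in Control-KD. The change was -0.31 upon Piwi-KD and -0.24 upon Nxf2-KD, and -0.042 upon H1-KD and -0.049 upon HP1a-KD. The third ran from 5960001 to 6120000 on 2R, with 3921 in Egg-KD and 4961 in Control-KD at 6000001, a change of -0.33. The fourth and the fifth lay on X from 8040001 to 8120000 and from 4000001 to 4120000, with changes of -0.33 and -0.32 at their lowest bins. At the last of these coverage was higher in Egg-KD by 0.30, and the change was -0.038 on recovered contacts.

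The largest increases were smaller than these. The first and second lay at the centromeric end of 3L, in its last bin from 24520001 to 24543557 and in the bin from 24400001 to 24440000, each with a change of 0.20. Few contacts lay behind them, with counting errors of 0.089 and 0.078, and the largest control pairs there were 0.17 and 0.26. The first had 6819 in Egg-KD and 5986 in Control-KD, with 5712 to 6393 in the other Control-KD matrices. The third was the bin from 16320001 to 16360000 on X, with 6353 in Egg-KD and 5667 in Control-KD, a change of 0.17 against a largest pair of 0.085. The fourth was the bin from 22120001 to 22160000 on 3L, 2.4 Mb from the centromeric end, with 8032 in Egg-KD and 7248 in Control-KD, a change of 0.16 against 0.050, but of 0.045 on recovered contacts. The fifth was the bin from 1280001 to 1320000 on 2R, with 0.16 against 0.12.

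At a gypsy insertion on 2L, a retrotransposon target of piRNAs that the study marked by FISH, short-range contacts were lower in Egg-KD. The probe lies from 429791 to 433786, in the bin from 400001 to 440000. This bin had 5179 in Egg-KD and 5684 in Control-KD, with 5344 to 5672 in the other Control-KD matrices, a change of -0.14 that exceeded the largest control pair of 0.025 but not the limit. It was 0.038 on recovered contacts, with coverage higher in Egg-KD by 0.17. The next bin had 4030 in Egg-KD and 4820 in Control-KD, with 4613 to 4844 in the others, a change of -0.26 against 0.024, and -0.13 on recovered contacts. The change stayed at -0.16 to -0.26 through the bin from 600001 to 640000, and on the telomeric side it was -0.10, -0.030 and 0.0087 in the 3 bins before the probe. Neighbouring bins share contacts, so their values are not independent. In the bin next to the probe the change was -0.30 upon Piwi-KD and -0.34 upon Nxf2-KD, -0.11 upon HP1a-KD and -0.046 upon H1-KD.

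The study placed a pair of FISH probes on 3L, in the bins from 17520001 to 17560000 and from 17920001 to 17960000. These bins shared a contact value of 75.9 in Egg-KD and 88.3 in Control-KD, with 72.7, 79.1 and 80.8 in the Piwi, the Nxf2 and the HP1a series. The log2 ratio was -0.22, with a counting error of 0.14 from 187 contacts in Egg-KD and 220 in Control-KD, and the largest control pair was 0.28. The second probe bin as a whole had 4933 in Egg-KD and 6199 in Control-KD, with 5790 to 6077 in the others, a change of -0.32 against a largest pair of 0.027, and -0.14 on recovered contacts. In that bin Piwi-KD changed by -0.25, Nxf2-KD by -0.23, HP1a-KD by -0.14 and H1-KD by 0.013. The first probe bin changed by -0.032 upon Egg-KD.

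The contrast in insulation between domain boundaries and bins away from them was slightly larger in Egg-KD than in each of the 4 Control-KD matrices. The insulation score of a bin is the log2 of the mean contact value between the 200 kb on its left and the 200 kb on its right over the median of the arm, so that a boundary is a dip. Dips with a prominence of at least 0.2 numbered 332 in Egg-KD and 319 in Control-KD over the bins kept in both. Of these, 28 lay in Egg-KD alone and 15 in Control-KD alone, with a shift of 1 bin allowed, while pairs of Control-KD matrices had up to 40 and 41 on the 2 sides. At 318 reference boundaries, called on the sum of the other 3 Control-KD matrices, the mean score was -0.51 in Egg-KD and -0.49 in Control-KD, a difference of -0.020 smaller than the typical control pair of 0.023. Bins away from boundaries had a mean score of 0.38 in Egg-KD and 0.36 in Control-KD. The dip set against bins away from boundaries was -0.893 in Egg-KD and -0.849 in Control-KD, with -0.805 to -0.819 in the other Control-KD matrices. The difference of -0.044 lay between the typical control pair of 0.027 and the largest of 0.045, and with the Piwi, the Nxf2 and the HP1a series Control-KD it was -0.072, -0.077 and -0.089, past the largest pair. With a window of 400 kb the difference to the own Control-KD nearly vanished, as given in the last section. A deeper dip was not limited to Egg-KD. Over the bins each shares with the Control-KD of Egg-KD, it was -0.887 in HP1a-KD and -0.805 in the HP1a series Control-KD. It was -0.726 in H1-KD, -0.819 in Piwi-KD and -0.784 in Nxf2-KD. Contacts inside the 313 domains between these reference boundaries were averaged at each distance from 80 to 400 kb, and the geometric mean over distances was taken. It was 203 in Egg-KD and 229 in Control-KD (log2 ratio -0.17), and between domains at the same distances it was 104 in Egg-KD and 118 in Control-KD (log2 ratio -0.19). The largest control pairs were 0.21 inside domains and 0.16 between them. The contrast of both moved by 0.017, where the typical control pair was 0.038 and the largest 0.062, and by 0.058, 0.079 and 0.065 with the Piwi, the Nxf2 and the HP1a series Control-KD.

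Single bins changed more than the mean. The change of the score had an SD of 0.13 over bins, against 0.11 in the control pair that differed most. A decrease past 3 times the typical control pair of the score, 0.25, was found in 113 of 2899 bins, 3.9%, and an increase in 30, 1.03%. Control pairs had 0 to 97 bins past this limit in both directions together, and Egg-KD 143. Among the reference boundaries 161 were deeper and 157 shallower in Egg-KD, and 19, or 5.97%, passed the limit as deeper and 1, or 0.314%, as shallower.

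The boundary that deepened most lay in the bin from 16120001 to 16160000 on 3R, with a score of 0.041 in Egg-KD and 0.81 in Control-KD. The Nxf2 series Control-KD held 0.47 there and the largest control pair was 0.38. On 3L, the bin from 1040001 to 1080000 had -0.37 in Egg-KD and 0.12 in Control-KD, with 0.10 to 0.13 in the others, and the bin from 7320001 to 7360000 had -0.74 in Egg-KD and -0.27 in Control-KD, with -0.23 to -0.30 in the others. At both, the difference of -0.49 and -0.46 exceeded the largest control pairs of 0.025 and 0.058. The 3 that became shallower most all lay on 3L. The bin from 17000001 to 17040000 had -0.48 in Egg-KD and -0.77 in Control-KD, with -0.68 to -0.75 in the others, a difference of 0.28 against 0.085. The bins from 8960001 to 9000000 and from 6480001 to 6520000 had differences of 0.22 and 0.21, against largest pairs of 0.13 and 0.13.

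**Figure D5:**
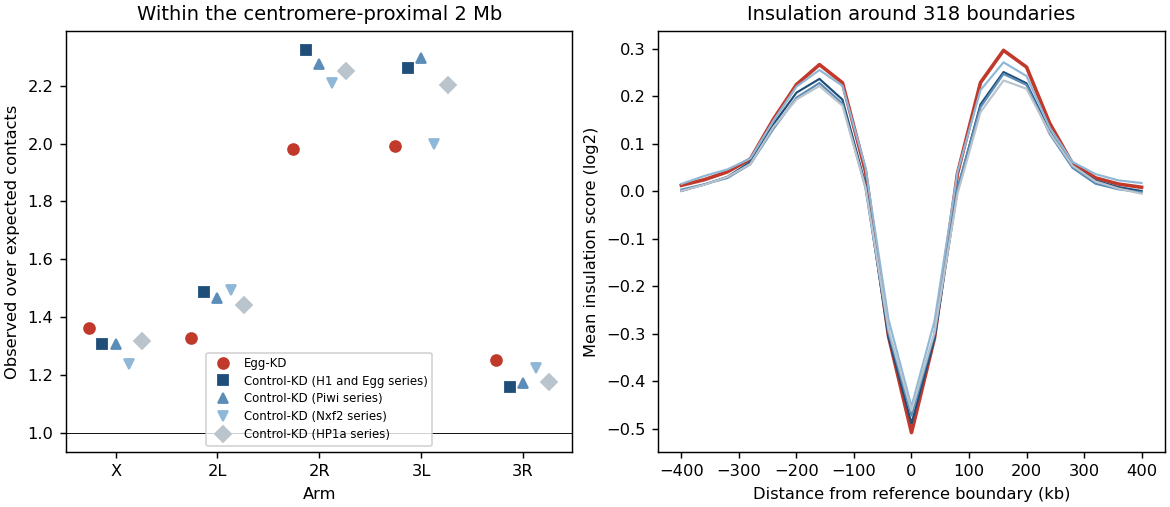
Left, observed over expected contacts over 400 kb apart within the centromere-proximal 2 Mb of each arm. Right, mean insulation score (log2) against the distance from 318 reference boundaries. Both show Egg-KD and the 4 Control-KD matrices; Egg-KD is lowest on 2R at 1.98 and on 2L at 1.33 and highest on 3R at 1.25, while its dip at boundaries reaches -0.51 beside -0.49 in Control-KD.

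The long-range pattern within arms weakened on 2R and 3L. Bins were ordered by the first eigenvector of the summed other Control-KD matrices, and its outer 20% on each side were called high and low, with the sign set so that values correlated negatively with the distance from the centromeric end. Strength is the mean log2 enrichment of high with high and low with low pairs over 1 Mb apart, minus that of high with low pairs. Over all arms it was 0.74 in Egg-KD and 0.79 in Control-KD, a difference of -0.051 smaller than the typical control pair of 0.055. On 3L it was 0.46 in Egg-KD and 0.60 in Control-KD, with 0.55 to 0.61 in the others, a difference of -0.14 against a largest pair of 0.055. On 2R it was 0.58 in Egg-KD and 0.71 in Control-KD, with 0.65 to 0.74 in the others, a difference of -0.13 against 0.092. On X, 2L and 3R the difference ran from -0.045 to 0.022, and none exceeded its largest pair. Centromere-proximal bins made up 40.6% of the high bins on 2R, 36.1% on 3L and 34.2% on X, and 0% on 2L and 3R. On 2R the pairs of high bins had 0.964 of the expected contacts in Egg-KD and 1.08 in Control-KD, a ratio of -0.16 against a largest pair of 0.060. Pairs of a high with a low bin of 2R were higher, with 0.754 in Egg-KD and 0.724 in Control-KD, and 0.707 to 0.739 in the others. Pairs of low bins had 1.31 in Egg-KD and 1.30 in Control-KD. The strength on 2R was lower in the other knockdowns too, by -0.17 upon HP1a-KD, -0.14 upon Piwi-KD, -0.13 upon H1-KD and -0.11 upon Nxf2-KD, each against its own Control-KD. On 3L it was lower by -0.12 upon H1-KD, -0.12 upon Piwi-KD, -0.090 upon HP1a-KD and -0.075 upon Nxf2-KD, beside -0.14 upon Egg-KD.

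Set beside the other knockdowns, each with its own Control-KD, the contacts between centromere-proximal zones of the same chromosome had log2 ratios of -0.53 upon Egg-KD, -0.88 upon HP1a-KD, -0.19 upon H1-KD, -0.14 upon Piwi-KD and -0.099 upon Nxf2-KD. H1-KD and Egg-KD share their Control-KD. For 3L with 3R within 0.4 Mb of the centromeric ends, every knockdown lay below its own Control-KD. The values were 4.49 in Egg-KD and 6.81 in H1-KD against 8.81, and 6.49 in HP1a-KD against 9.57. They were 6.68 in Piwi-KD against 9.36 and 6.35 in Nxf2-KD against 8.71. Within arms, centromere-proximal pairs had ratios of -0.12 upon Egg-KD, -0.29 upon HP1a-KD, -0.059 upon H1-KD, 0.016 upon Piwi-KD and -0.0074 upon Nxf2-KD. Centromere- with telomere-proximal zones had 0.52 upon Egg-KD, 0.32 upon HP1a-KD, 0.54 upon H1-KD, 0.16 upon Piwi-KD and 0.16 upon Nxf2-KD. Between all arms the ratio was -0.013 upon Egg-KD and -0.44 upon HP1a-KD, so that the centromere-proximal loss stood beside a general loss between arms in HP1a-KD and beside none past the control pairs in Egg-KD. Relative to all contacts between arms, it was -0.52 upon Egg-KD and -0.44 upon HP1a-KD. At 400 kb the ratio was -0.19 upon Egg-KD, -0.15 upon HP1a-KD, -0.052 upon Piwi-KD, -0.041 upon Nxf2-KD and 0.016 upon H1-KD, and at 10 Mb it was 0.16 upon Egg-KD, -0.10 upon HP1a-KD, 0.16 upon Piwi-KD, 0.13 upon Nxf2-KD and 0.26 upon H1-KD. The differences between knockdowns were not tested.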

How the data were processed

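The authors digested chromatin with HindIII, mapped reads to dm3, built 40-kb matrices with HiCExplorer, merged replicates, removed bins of extreme coverage, corrected by ICE and normalized matrices of one comparison to each other, per the study's methods. The submitters' processing notes name Bowtie2 2.2.9. What the authors deposited is thus a signal for each pair of bins and not a count. For the recovered contacts, ICE was undone with a factor for each bin, after which 100% of values under 50 came out within 0.01 of a whole number. Scaling, zones, observed over expected values, insulation, boundaries and eigenvectors were computed from the deposited signal. Simulated data were used to check a planted loss across the centromere, planted short-range decreases and the recovery of contacts. Observed over expected values, insulation, boundaries and eigenvectors had no planted change to find. The measures, limits and loci were chosen with earlier results of these data known. Named loci are the 5 regions of largest decrease and of largest increase of short-range contacts, the bins of the FISH probes given by coordinate, and the 3 reference boundaries with the largest change in each direction. Alternatives were other scalings, recovered contacts, other Control-KD matrices, bins kept in all 9 matrices, single arms left out, and other zone, window, prominence and limit settings. A difference between matrices was set beside the 6 control pairs, and no test was possible with 1 matrix per group. No dm3 annotation was used, so bins carry no gene names. DamID-seq and ChIP-seq samples and sequence outside the 5 arms were not analysed here. Computation was done with NumPy 2.4.6, pandas 2.3.3 and SciPy 1.17.1 under Python 3.11.15, and matplotlib 3.10.9 drew the plots.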

Additional observations from a re-analysis of the deposited data

How the results depend on the processing

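No paired analysis was possible because the authors merged the replicates of each group before depositing the matrices. Contacts between centromere-proximal zones of the same chromosome kept their direction in all 15 alternatives run, and moved to -0.353 with values as deposited, -0.652 and -0.640 with the Control-KD of the Nxf2 and the HP1a series, -0.426 without arm 2L, -0.427 without arm 2R and -0.436 with zones of 3 Mb. Values as deposited, where Egg-KD totals are higher, gave 0.293 at 40 kb, -0.010 at 400 kb, 0.080 at 1 Mb (reversed) and 0.337 at 10 Mb, 0.114 for centromere-proximal zones of different chromosomes and -0.008 for telomere-proximal zones. The Nxf2 series Control-KD gave -0.075 at 400 kb, 0.056 at 10 Mb, -0.339 between all arms, -0.340 for centromere-proximal zones of different chromosomes, 0.121 for centromere- with telomere-proximal zones, -0.416 for telomere-proximal zones, -0.050 for centromere-proximal pairs within arms, -0.042 for the short-range change of centromere-proximal minus interior bins, 17 increased bins and an insulation contrast of -0.077. That of the Piwi series gave -0.250 for centromere-proximal zones of different chromosomes, 0.095 for centromere- with telomere-proximal zones, 27 increased bins and a contrast of -0.072. That of the HP1a series gave 0.250 at 40 kb, a contrast of -0.089 and a pattern strength difference of 0.006. Recovered contacts gave -0.036 for centromere-proximal pairs within arms, 46 decreased and 90 increased bins and 43 boundaries of Egg-KD alone. Without X, centromere-proximal zones of different chromosomes had -0.297, without 2R the centromere-proximal pairs within arms -0.071, and without 3L 4 bins increased. Decreased and increased bins numbered 206 and 58 with contacts at 80 to 400 kb, 239 and 78 at a limit of 2 times the typical control pair, and 48 and 0 at 4 times. The insulation contrast was -0.073 with a window of 120 kb and -0.004 with 400 kb, where 43 boundaries lay in Egg-KD alone, and 75 did when the same bin was required. Depth limits single bin pairs most: the 2 FISH probe bins of 3L share 187 contacts in Egg-KD. Control-KD matrices of other series differ in experiment and depth as well as by chance, and these could not be told apart.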
